A study of Mus musculus with 22 samples.

Results

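The genes of the MLX and MAX transcription factor network were followed in whole testes of WT and MLXKO mice. The 10 genes were taken by their symbols from a table of 17931 gene symbols: *Mlx*, *Mlxip*, *Mlxipl*, *Max*, *Mnt*, *Mga*, *Mxd1*, *Mxd3*, *Mxd4* and *Mxi1*. All 10 had enough counts to be tested, among 14640 genes tested in all. Total RNA came from testes of 3 WT males, verified fertile breeders with no *Mlx* deletion, and of 3 males homozygous for a constitutive *Mlx* deletion, all 7 months old. WT and MLXKO males were age-matched littermates on the 129S4 background, and the labels give no treatment. The deleted allele was made in AK7 embryonic stem cells by removing exons 3 to 6 between LoxP sites with Meox2-Cre, a Cre expressed in the embryo proper, and the Cre was then crossed out. Lines were founded from 2 stem cell clones, and the line behind each library is not given in the sources used here. The libraries held 16674678 to 19742726 counts. The library labelled KO1 stood apart from the other MLXKO libraries (chi-square per degree of freedom of 7.91 against KO2 and 7.92 against KO3, against 2.66 to 4.16 for all other pairs within a genotype), so values without it are given for the network genes. Nothing was treated as a duplicate, since every pair differed by more than sampling noise.

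MLX and MAX are basic helix-loop-helix leucine zipper (bHLHLZ) proteins that act as common partners. MAX pairs with the growth-promoting MYC proteins and with the repressors of the MXD family, MNT and MGA. MLX pairs with MondoA, encoded by *Mlxip*, and with ChREBP, encoded by *Mlxipl*, both of which activate metabolic genes in response to glucose-derived signals, and it shares MNT, MXD1 and MXD4 with MAX. The dimers bind E-boxes, of which CACGTG is the canonical form, through the basic region of each partner. The network is known for setting growth and metabolism against differentiation, and the testis is a tissue in which cells at all stages from stem cell to spermatid lie side by side.

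The coding sequence of the basic region is shown for 6 of the genes, because this is the DNA-contacting stretch that the targeted deletion removes from *Mlx* and that its partners keep. Capitals mark the 9 codons that run from the conserved histidine codon to the conserved arginine codon, with the conserved glutamate codon between them, and 6 bases on each side are in lower case. Sequences are from GENCODE vM21 transcripts on GRCm38 (mm10), 5′ to 3′ on the coding strand.
Mlx: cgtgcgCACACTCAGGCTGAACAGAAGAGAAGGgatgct
Mlxip: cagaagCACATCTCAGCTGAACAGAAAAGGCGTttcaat
Mlxipl: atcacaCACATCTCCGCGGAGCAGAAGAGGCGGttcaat
Max: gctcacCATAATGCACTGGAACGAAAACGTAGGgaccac
Mnt: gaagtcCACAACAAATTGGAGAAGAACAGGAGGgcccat
Mga: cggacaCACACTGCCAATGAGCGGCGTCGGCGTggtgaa
The capitals of *Mlx* lie at chr11:101088666-101088692, in exon 3 of 7 of RefSeq transcript variant 1, the transcript on which the deletion was designed. Those of *Mnt* are joined from 2 exons. Each stretch was found by searching the translated coding sequence for histidine, glutamate and arginine at this spacing. Bases that all codons for those amino acids share were therefore identical by construction, also in the counts by pair. Over these 27 positions, 7 were identical in all 10 genes, and part of these 7 were set by the search. *Mlxip* and *Mlxipl* shared 22 of 27 bases, as did *Mxd1* and *Mxi1*, and *Mnt* and *Mga* shared 11, the fewest of any pair.

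*Mlx* (chr11:101087277-101092207, plus strand), the deleted gene, is described first. In the plot of the network genes by library, its level was 6.75, 6.10 and 5.53 CPM (counts scaled to a common total by library size and TMM factor) in WT1, WT2 and WT3 and 4.85, 6.03 and 5.40 CPM in KO1, KO2 and KO3. The genotypes overlapped, although the MLXKO library was the lower one in 3 of 3 pairs. The log2 fold change (LFC, MLXKO over WT) was -0.18 (SE 0.14, 95% interval -0.49 to 0.13). Its adjusted p was 0.326. The LFC was -0.10 without KO1 and likewise without WT1, and -0.04 with library size alone. Adjusted p-values come, unless another tool is named, from the quasi-likelihood test of edgeR, adjusted by Benjamini and Hochberg's method over all genes tested. The count is made over the whole gene and cannot check the genotype labels. Exons 3 to 6 of transcript variant 1 (chr11:101088598-101089869) hold 509 of its 1723 exonic bases, or 29.5%, and the other 70.5% remain in the deleted allele. The end of the gene is also shared with *Psmc3ip*, a gene on the opposite strand that encodes a cofactor of meiotic recombination. The shared exonic stretch is 385 bases long (chr11:101091823-101092207), and whether reads were counted by strand is not given in the sources used here. *Psmc3ip* had 99.1, 102.0 and 98.0 CPM in WT and 89.4, 83.6 and 87.1 CPM in MLXKO testes. It fell by 0.20 on the log2 scale (SE 0.05, adjusted p = 0.00568), with no overlap between genotypes, and that call was lost with library size alone (LFC -0.06).

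**Figure D1:**
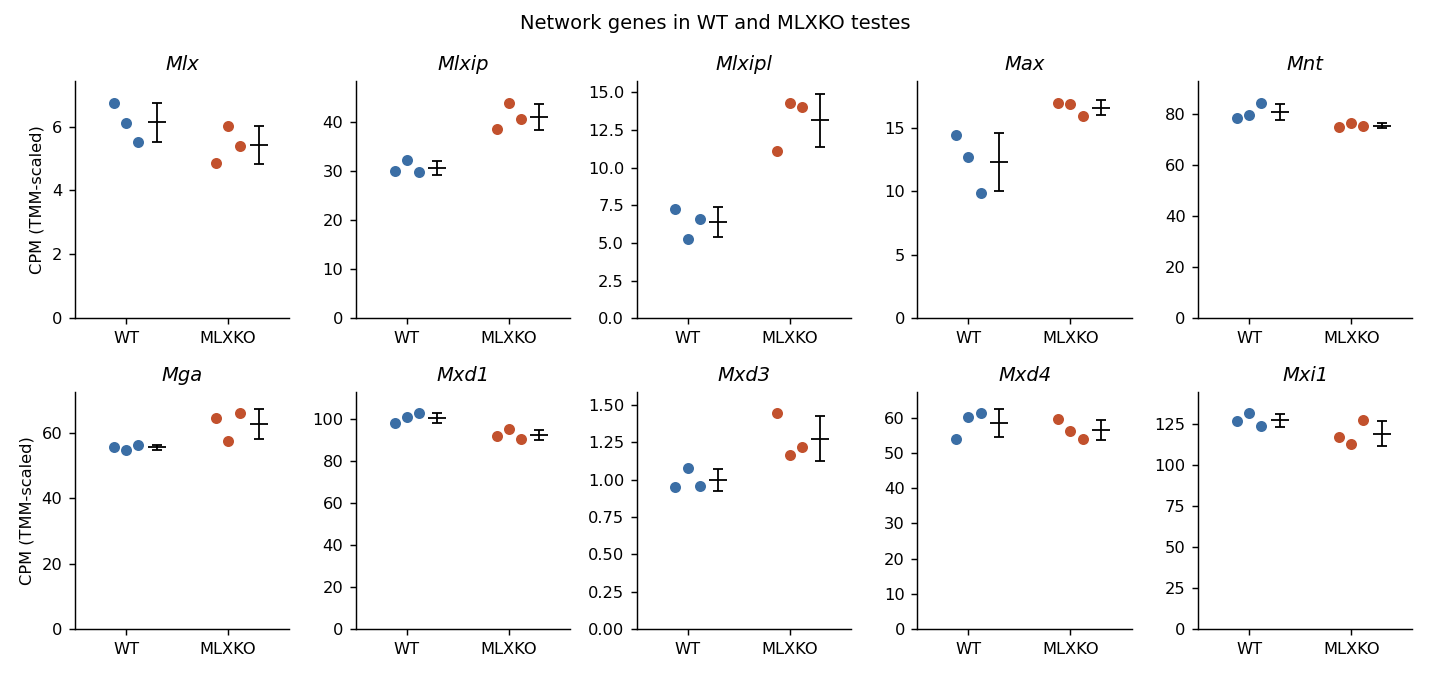
Each panel plots the level of 1 network gene in CPM, from 0, in the 3 WT (blue) and 3 MLXKO (orange) libraries, with the mean and SD in black beside the points. *Mlxip*, *Mlxipl*, *Max* and *Mga* sit higher in all 3 MLXKO libraries, and *Mlx* overlaps between the genotypes.

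Of the 10 network genes, 4 rose in MLXKO testes, 0 fell and 6 did not pass the test. At an unadjusted p under 0.05, *Mxd1* was the 1 gene on the lower side, and DESeq2 also called 0 lower. Among all genes tested, 45.4% were called, 24.8% as higher and 20.6% as lower, so the share of network genes called, 4 of 10, was near that background. The median LFC of the 10 genes was 0.06, against 0.03 over all genes tested, and their median absolute LFC was 0.17 against 0.23. For 7 of the 10, the 3 values of one genotype did not overlap those of the other (5 higher and 2 lower in MLXKO), where 56.2% of all genes tested were separated in this way (30.3% higher and 25.9% lower). The number of network genes called was 3 without KO1, where 7395 of 14787 genes were called in all, and 2 without WT3, *Mlxip* and *Mlxipl*, where 5807 of 14836 were. As the tissue was sequenced in bulk, fewer cells of a type and less RNA per cell cannot be told apart in any of these values.

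The genes for the MLX partners that activate transcription were the ones with the lowest adjusted p. *Mlxipl* (chr5:135089890-135138382, plus strand), which encodes ChREBP, a regulator of glycolytic and lipogenic genes, was at 7.28, 5.28 and 6.60 CPM in WT and 11.1, 14.3 and 14.0 CPM in MLXKO testes. The lowest MLXKO library, KO1, was above the highest WT library, WT1. Its mean rose from 6.38 ± 1.02 CPM to 13.2 ± 1.76 CPM (SD, n = 3 each), a 2.06-fold difference (LFC 1.04, SE 0.14, adjusted p = 2.31e-04), and its absolute LFC exceeded that of 94.2% of genes tested. The counts behind it were 83 to 138 per WT library and 216 to 265 per MLXKO library. The LFC was 1.14 without KO1.

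*Mlxip* (chr5:123394798-123457932, plus strand), which encodes MondoA, was at 29.9, 32.4 and 29.8 CPM in WT and 38.7, 44.0 and 40.6 CPM in MLXKO testes. The genotypes were again apart, and the values within each genotype lay close together. The mean rose from 30.7 ± 1.43 to 41.1 ± 2.68 CPM (SD, n = 3 each), 1.34-fold (LFC 0.42, SE 0.07, adjusted p = 7.13e-04), and the LFC was 0.46 without KO1.

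*Max* (chr12:76937269-76962201, minus strand), the partner that MYC, MXD, MNT and MGA proteins share, was at 14.4, 12.7 and 9.87 CPM in WT and 16.97, 16.9 and 15.9 CPM in MLXKO testes. WT3 was the lowest of the 6 libraries, and the MLXKO values lay within a narrow range above all WT values. The LFC was 0.43 (SE 0.12, adjusted p = 0.0158), or 1.34-fold, and 0.41 without KO1. Without WT3 it was 0.28 with an adjusted p of 0.05005 that just missed the threshold.

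*Mga* (chr2:119897228-119969581, plus strand) encodes a very large MAX partner that also carries a T-box domain and takes part in a variant Polycomb complex. It was at 55.7, 54.8 and 56.4 CPM in WT and 64.4, 57.5 and 66.0 CPM in MLXKO testes, with KO2 close to the WT values. The LFC was 0.17 (SE 0.06, adjusted p = 0.0377), a 1.13-fold difference. This call was lost in DESeq2 (LFC 0.15, adjusted p = 0.152) and without each library in turn except KO2 (adjusted p of 0.0642 to 0.129, 0.0642 without KO1).

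**Figure D2:**
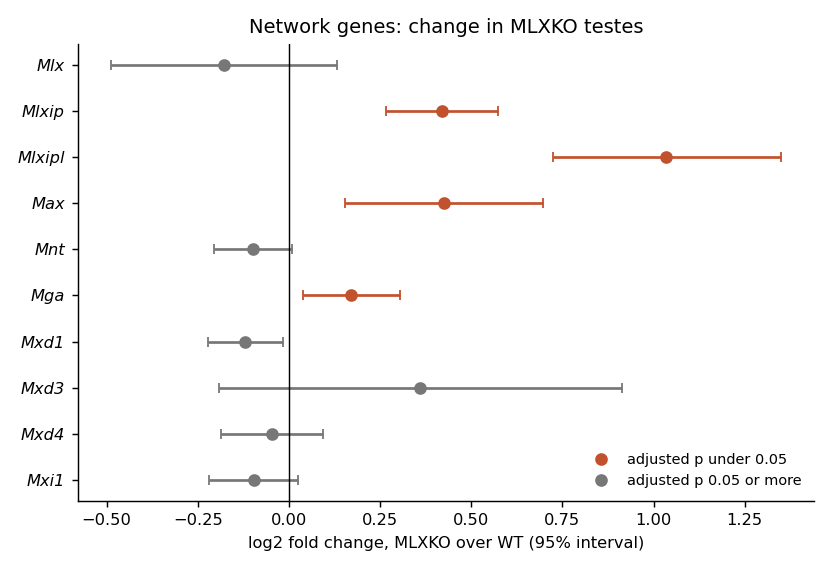
Points give the LFC of each network gene, MLXKO over WT, with its 95% interval from edgeR, and genes with an adjusted p under 0.05 are in orange. The 4 called genes lie to the right of 0, from 0.17 for *Mga* to 1.04 for *Mlxipl*, and the intervals of *Mlx*, *Mnt*, *Mxd3*, *Mxd4* and *Mxi1* cross 0.

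*Mnt* and *Mxd1*, the repressors that can pair with MLX as well as with MAX, were slightly lower in MLXKO testes without passing the test. *Mnt* (chr11:74830920-74845725, plus strand) was at 78.7, 79.6 and 84.6 CPM in WT and 75.0, 76.5 and 75.2 CPM in MLXKO testes, an LFC of -0.10 (95% interval -0.21 to 0.01, adjusted p = 0.118). *Mxd1* (chr6:86647042-86669161, minus strand), which encodes a repressor that is induced as many cell types differentiate, was at 98.0, 100.8 and 102.7 CPM in WT and 91.9, 95.1 and 90.4 CPM in MLXKO testes, an LFC of -0.12 (interval -0.22 to -0.02, adjusted p = 0.0565). For both genes every MLXKO library was below every WT library. The side of 0 on which they fell depends on the scaling, since with library size alone their LFC values were 0.04 and 0.02. With that scaling the median LFC of all genes was 0.16 in place of 0.03, and relative to that median *Mnt* was at -0.12 and *Mxd1* at -0.14 under either scaling. Without KO1 the LFC was -0.09 for *Mnt* and -0.11 for *Mxd1*.

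The other MXD genes encode repressors that pair with MAX, and *Mxd4* also with MLX. *Mxd4* (chr5:34173883-34187720, minus strand) was at 54.1, 60.2 and 61.3 CPM in WT and 59.7, 56.2 and 54.1 CPM in MLXKO testes (LFC -0.05, interval -0.19 to 0.09, adjusted p = 0.586). *Mxi1* (chr19:53310518-53375810, plus strand), also known as *Mxd2*, was at 126.8, 131.4 and 123.6 CPM in WT and 117.0, 112.7 and 127.3 CPM in MLXKO testes (LFC -0.10, interval -0.22 to 0.02, adjusted p = 0.177). The genotypes overlapped for both genes, and both LFC values turned positive with library size alone, at 0.09 and 0.04. *Mxd3* (chr13:55325168-55329823, minus strand), which is known for its expression in cells in S phase, had 17 or 18 counts in each WT library and 28, 21 and 23 counts in the MLXKO libraries. Its MLXKO values of 1.44, 1.16 and 1.22 CPM lay above the WT values of 0.949, 1.08 and 0.959 CPM, and at this depth the LFC of 0.36 had an interval of -0.19 to 0.91 (adjusted p = 0.263). Without KO1 the LFC was -0.08 for *Mxd4*, -0.08 for *Mxi1* and 0.26 for *Mxd3*. *Mxd3* overlaps the coding gene *Prelid1*, and *Mxi1* overlaps *Gm10197*, so reads in the shared stretches cannot be assigned with certainty.

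Levels were compared between genes per exon length, as RPKM, the CPM divided by the length of annotated exons in kilobases. In WT testes the order was *Mxi1* (18.7 ± 0.577 RPKM, SD, n = 3), *Mnt* (17.5 ± 0.687), *Mxd1* (14.2 ± 0.340), *Mxd4* (6.90 ± 0.456), *Mlxip* (3.69 ± 0.172), *Mga* (3.63 ± 0.0514), *Max* (3.43 ± 0.636), *Mlx* (3.06 ± 0.306), *Mlxipl* (1.15 ± 0.183) and *Mxd3* (0.421 ± 0.0311). Of the 5 repressor genes of the MXD family with *Mnt*, 4 held the top 4 places and *Mxd3* the last. Neighbours whose values overlapped were *Mxi1* and *Mnt*, *Mlxip* and *Mga*, *Mga* and *Max*, and *Max* and *Mlx*, while the other neighbours were apart in all 3 libraries. In MLXKO testes *Max* (4.61 ± 0.167 RPKM) stood before *Mga* (4.08 ± 0.295), and *Mlxipl* (2.38 ± 0.318) overlapped *Mlx* (2.71 ± 0.296). That overlap holds for the length used, which includes the 509 bases that the deleted *Mlx* allele lacks and so lowers the MLXKO value of *Mlx*. Its level on the kept exons alone was not computed. Places in the middle of the order depend on the length used. With the longest annotated transcript in place of all exons, 5 of 10 places were kept, *Mxd1* (21.5 RPKM) came before *Mnt* (17.6 RPKM), and *Max* (6.35 RPKM) came before *Mlxip* (4.21 RPKM), with the same 4 repressors on top.

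**Figure D3:**
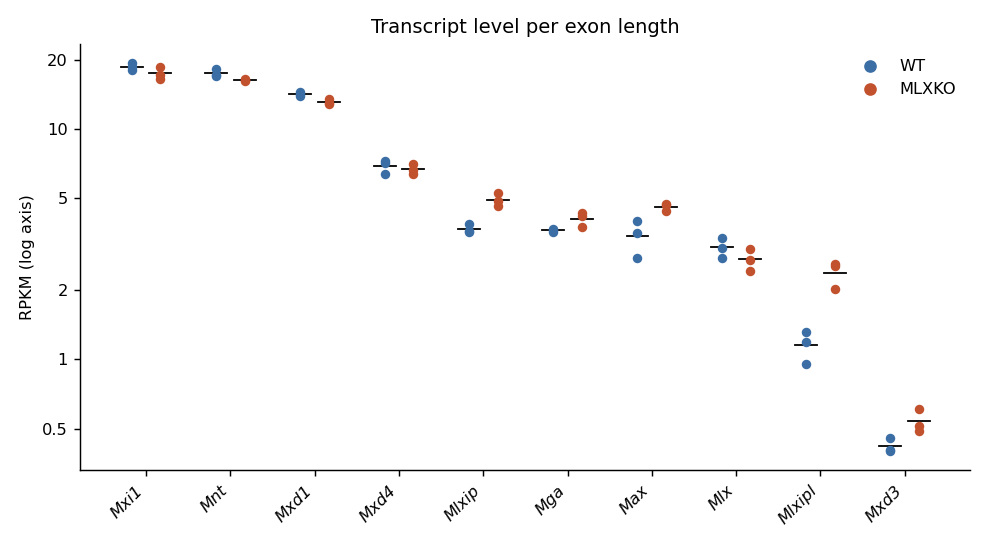
The level of each network gene in RPKM is plotted on a log axis for the 3 WT (blue) and 3 MLXKO (orange) libraries, ordered by the WT mean, with a black line at each mean. *Mxi1*, *Mnt* and *Mxd1* lie above 12 RPKM in every library, *Mxd3* lies below 1 RPKM, and *Mlxipl* shows the widest step between genotypes.

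The makeup of the transcripts for MLX partners was described as the share of each gene in their summed RPKM. Transcripts of the glucose-responsive activators took a larger share in MLXKO testes. These shares describe RNA alone. By immunoblot the paper reports less MondoA and ChREBP protein in MLXKO whole testes. In MLXKO tubule cells it reports moderately less MAX protein and unchanged MNT protein. The share of *Mlxip* was 8.54%, 8.96% and 7.996% in WT and 10.8%, 11.9% and 11.4% in MLXKO testes, and that of *Mlxipl* was 3.12%, 2.20% and 2.66% in WT and 4.69%, 5.82% and 5.92% in MLXKO testes. *Mnt* went from 40.3% ± 0.575 to 37.6% ± 0.407 and *Mxd1* from 32.7% ± 0.252 to 30.1% ± 0.243 (SD, n = 3 each). None of these 4 shares overlapped between the genotypes, whereas *Mxd4*, at 15.9% ± 0.646 and 15.4% ± 0.875, did. The shares add up to a fixed total, so they are not independent of each other. How often shares in pools of other genes would be apart was not computed. Within the MXD family with *Mnt*, the shares of *Mxd1*, *Mxd4*, *Mxi1* and *Mnt* all overlapped, and only *Mxd3* was apart, at 0.729% ± 0.0482 and 0.995% ± 0.117.

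Ratios of 4 pairs of network genes were taken in RPKM. In males homozygous for the deletion, *Mlx* transcripts come from the deleted allele, and reads of *Psmc3ip* in the shared stretch may add to the *Mlx* count. The ratio of *Mlxip* to *Mlx* was 1.07, 1.27 and 1.30 in WT and 1.92, 1.75 and 1.80 in MLXKO testes. The ratio of *Max* to *Mlx* went from 1.11 ± 0.104 to 1.71 ± 0.206, and that of *Mlxipl* to *Mlxip* from 0.314 ± 0.0621 to 0.481 ± 0.0442 (SD, n = 3 each). *Mnt* to *Max*, a repressor against its partner, was 4.25, 4.87 and 6.67 in WT and 3.43, 3.53 and 3.68 in MLXKO testes. As computed, no ratio of these 4 overlapped between the genotypes. Each of them includes a gene already called as higher, so the ratios are no separate result. Among single genes tested 56.2% were separated in this way, and no such background was computed for ratios. The length used for *Mlx* in both genotypes includes the 509 bases that the deleted allele lacks. Counting those bases lowers the RPKM of *Mlx* in MLXKO testes and raises the ratios of *Mlxip* and *Max* to it there. Whether these ratios to *Mlx* stay apart on the kept exons alone was not tested.

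The canonical E-box was sought in promoters, because the network's dimers bind it and members can then be described by whether their own promoters hold it. The letters CACGTG, which read the same on both strands, were searched in the RefSeq promoter sequences (GRCm38.p6) from 250 bases before to 50 bases after each annotated start, 300 bases in all. They were present for 5 of the 10 genes, and all 10 genes had a promoter in the set. The 30 bases around each match are given 5′ to 3′ on the gene's strand, with the E-box in capitals.
Mlx: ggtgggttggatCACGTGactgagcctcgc
Max: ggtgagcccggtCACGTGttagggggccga
Mnt: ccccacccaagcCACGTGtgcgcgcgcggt
Mxd4: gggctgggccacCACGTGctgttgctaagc
Mlxipl: gcggctgccatcCACGTGctaaggagagaa
The first base of the E-box was at -40 from the start of *Mlx*, -3 from that of *Max*, -123 from that of *Mnt*, -219 from that of *Mxd4* and -98 from the upstream one of the 2 starts of *Mlxipl*. No match was found in these windows for *Mlxip*, *Mga*, *Mxd1*, *Mxd3* and *Mxi1*. Of all annotated starts 7.15% held the letters, and of the 11287 tested genes with a promoter in the set 11.1% did. A match is a description of the sequence and shows no binding, and the lack of one does not show that binding is absent. Of the genes with a match, *Max* and *Mlxipl* rose, and of those without one, *Mlxip* and *Mga* rose.

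Genes of related pathways were counted from lists, beside which stand the 24.8% of all genes tested that were called as higher and the 20.6% called as lower. Of the established targets of MondoA-MLX and ChREBP-MLX, 8 of 13 tested rose, 3 fell and 2 did not pass the test, with a median LFC of 0.24 against 0.03 over all genes. The count that rose was 6 in DESeq2 and 5 without WT1, without WT2 or without KO2, where *Fasn*, *Acacb* and *Tomm20* were not called. *Txnip*, which encodes an inhibitor of glucose uptake, was at 51.0, 76.6 and 78.0 CPM in WT and 31.6, 28.1 and 28.9 CPM in MLXKO testes, and it fell by 1.21 on the log2 scale (SE 0.14, adjusted p = 6.70e-05). The related arrestin gene *Arrdc4* was at 6.17, 5.21 and 5.64 CPM in WT and 3.30, 3.60 and 3.71 CPM in MLXKO testes (LFC -0.69, SE 0.14, adjusted p = 0.00284). Without KO1 the LFC was -1.26 for *Txnip* and -0.64 for *Arrdc4*. The genotypes were apart for both, and the promoter of *Arrdc4* held the letters CACGTG at -193 while that window of *Txnip* did not. Other forms of the E-box were not counted, and the paper reports MLX at both promoters in WT testes. The other gene that fell was *Acaca* (LFC -0.26, SE 0.07, adjusted p = 0.0131), which encodes an acetyl-CoA carboxylase, and its call was lost with library size alone. The LFC of *Thrsp*, known for its link to lipogenesis, was 1.47 (SE 0.39, adjusted p = 0.0101), from as few as 11 counts in WT2, and it was 1.14 to 2.18 as each library was left out. *Scd1*, which encodes a stearoyl-CoA desaturase, rose with an LFC of 1.22 (SE 0.14, adjusted p = 7.31e-05), and *Gpd1*, which encodes glycerol-3-phosphate dehydrogenase, with an LFC of 1.20 (SE 0.20, adjusted p = 6.83e-04). *Tkfc* had no row in the table, and *Pklr* and *Pnpla3* had too few counts.

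None of the 3 MYC genes, which encode the activating partners of MAX, passed the test in edgeR or DESeq2, with 1 of 3 at an unadjusted p under 0.05 in edgeR. *Myc* was at 4, 5 and 13 counts in the WT libraries and 16, 16 and 15 in the MLXKO libraries (LFC 0.98, SE 0.42, adjusted p = 0.0766). WT3 was the WT library nearest the MLXKO values, and without it the LFC was 1.65 (adjusted p = 0.0134). *Mycn*, with 33 to 51 counts per library, had an LFC of -0.38 (adjusted p = 0.177), and *Mycl*, with 11 to 21, one of -0.07 (adjusted p = 0.876). These values are for RNA, and by immunoblot the paper reports moderately less MYCN protein in MLXKO tubule cells.

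The SIN3 and HDAC corepressor is recruited by MXD proteins and MNT. Of its 11 genes, 4 rose and 2 fell, with a median LFC of 0.08, and this count of 6 called is near the 45.4% of all genes. *Rbbp7*, which encodes a histone-binding subunit, was at 64.2, 73.6 and 75.9 CPM in WT and 102.5, 129.5 and 122.2 CPM in MLXKO testes (LFC 0.73, SE 0.09, adjusted p = 9.34e-05). *Arid4a* (LFC 0.23, adjusted p = 0.0104), *Sin3b* (LFC 0.20, adjusted p = 0.00714) and *Arid4b* (LFC 0.17, adjusted p = 0.0303) rose by smaller amounts, and *Sap30* (LFC -0.36, adjusted p = 0.0333) and the deacetylase gene *Hdac1* (LFC -0.21, adjusted p = 0.00750) fell. The calls for *Sap30* and *Hdac1* were lost with library size alone, and those for *Arid4a* and *Arid4b* in DESeq2. That for *Sap30* was also lost without WT1, WT2, KO2 or KO3, and that for *Arid4b* with DESeq2's size factors and without each library in turn except KO1. Of the 10 genes of the MGA-containing Polycomb complex, 0 passed the test in edgeR or DESeq2, with 2 at an unadjusted p under 0.05 in each, and the median LFC was -0.02. Those 2 in edgeR were *Yaf2* (LFC 0.39, adjusted p = 0.0529) and *L3mbtl2* (LFC -0.13, adjusted p = 0.0611). With library size alone 3 of the 10 were called as higher, *Cbx3*, *Wdr5* and *Yaf2*, and with DESeq2's size factors *L3mbtl2* was called as lower. Without KO1 *Yaf2* was called as higher and *L3mbtl2* as lower, and *Yaf2* was also called as higher with the littermate pair as a block, with no filter and without WT2. Among 8 other bHLHLZ factors that bind E-boxes, 3 rose and 0 fell in edgeR and in DESeq2 alike, with a median LFC of 0.35 and 5 of 8 at an unadjusted p under 0.05 in edgeR. Those that rose were *Usf1* (LFC 0.56, SE 0.09, adjusted p = 4.75e-04), *Srebf1*, a regulator of fatty acid synthesis genes (LFC 0.55, SE 0.10, adjusted p = 0.00143), and *Srebf2*, a regulator of sterol synthesis genes (LFC 0.28, SE 0.06, adjusted p = 0.00329). Without KO1, 7 of these 8 rose, with library size alone 6 did, and with the littermate pair as a block 5 did.

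Markers of the cell types in the testis moved with genotype. All 12 Sertoli cell markers rose (median LFC 0.72), as did all 8 tested Leydig cell markers (1.16) and all 9 macrophage markers (1.28), the interstitial and supporting cells of the organ. The summed level of the Leydig cell list was 896 to 925 CPM in WT and 1951 to 2574 CPM in MLXKO testes, that of the macrophage list 85.8 to 90.6 and 182 to 188 CPM, and that of the Sertoli cell list 980 to 1036 and 1509 to 1815 CPM. *Insl3*, a hormone gene of Leydig cells, had the highest LFC of its list, at 1.93 (SE 0.08, adjusted p = 1.94e-07), *Lyz2* of macrophages one of 1.79 (SE 0.08, adjusted p = 2.35e-07), and *Amh* of Sertoli cells one of 1.27 (SE 0.18, adjusted p = 3.02e-04). On the other side, all 11 markers of elongating spermatids fell (median LFC -0.53), from a summed 29178 to 30191 CPM in WT to 18011 to 21728 CPM in MLXKO testes, led by the nuclear packaging genes *Tnp2* (LFC -0.82) and *Prm1* (LFC -0.80). All 8 round spermatid markers fell (median -0.26), as did 8 of 10 spermatocyte markers (median -0.16). These falls were fewer with library size alone, at 4 of 8 and 1 of 10. With 1 library left out, the spermatocyte count was 2 without KO2, 3 without WT1 and 4 without KO3, and the round spermatid count was 5 without WT2, KO2 or KO3. Of 8 spermatogonial markers, *Kit* (LFC 0.81) and *Uchl1* (LFC 0.17) rose, and *Id4* (LFC -0.26) fell. The call for *Uchl1* was lost in DESeq2, with DESeq2's size factors, with no filter, with the littermate pair as a block and without each library in turn except KO1, and that for *Id4* with library size alone and in DESeq2 with the block. *Hsd11b1*, *Nanos2* and *Nanos3* had too few counts and *Adgre1* had no row. No listed marker in the table was at 0 in all libraries, and germ, Sertoli and Leydig cell markers were found in both genotypes. The part that these shifts have in the changes of the network genes was not tested.

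**Figure D4:**
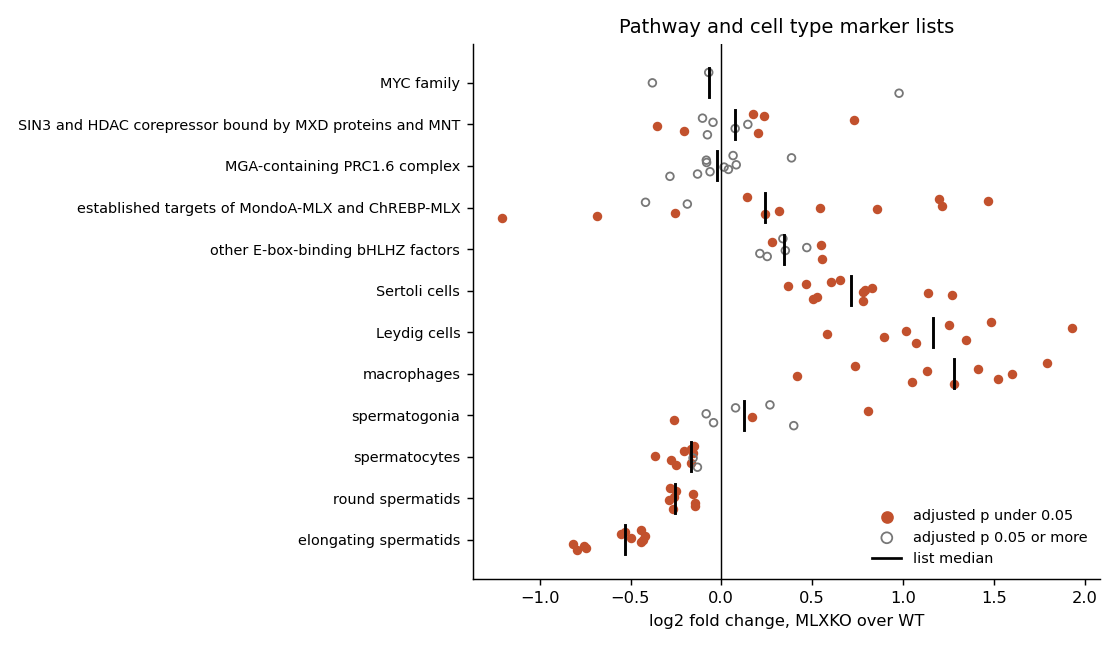
Each point is the LFC of 1 gene, MLXKO over WT, in the pathway lists (top 5) and cell type marker lists (lower 7), filled in orange where the adjusted p is under 0.05, with the list median as a black line. Sertoli cell, Leydig cell and macrophage markers lie to the right of 0 and spermatid markers to the left, while the Polycomb and MYC lists hold no filled point.

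The genes most like *Mlxipl*, the network gene with the largest LFC, were found by the root mean square difference of log2 CPM, each set to its own WT mean, over the 6 libraries. They were *Stx1a*, a syntaxin of regulated secretion (difference 0.0383), the zinc finger gene *Klf6* (0.0507), the repressor gene *Trps1* (0.0665), *Ptgr1*, which encodes a prostaglandin reductase (0.0854), and *G6pdx*, which encodes the first enzyme of the pentose phosphate pathway (0.0859). Their LFC values, 1.05, 1.04, 1.07, 0.97 and 1.09, were close to that of *Mlxipl* because the measure selects for it, and they receive no test for that reason. *Stx1a* (chr5:135023482-135051100) lies 38.8 kb from *Mlxipl* on the same chromosome, with 3 coding genes between them, *Bud23*, *Dnajc30* and *Vps37d*. The other 4 lie on other chromosomes.

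**Figure D5:**
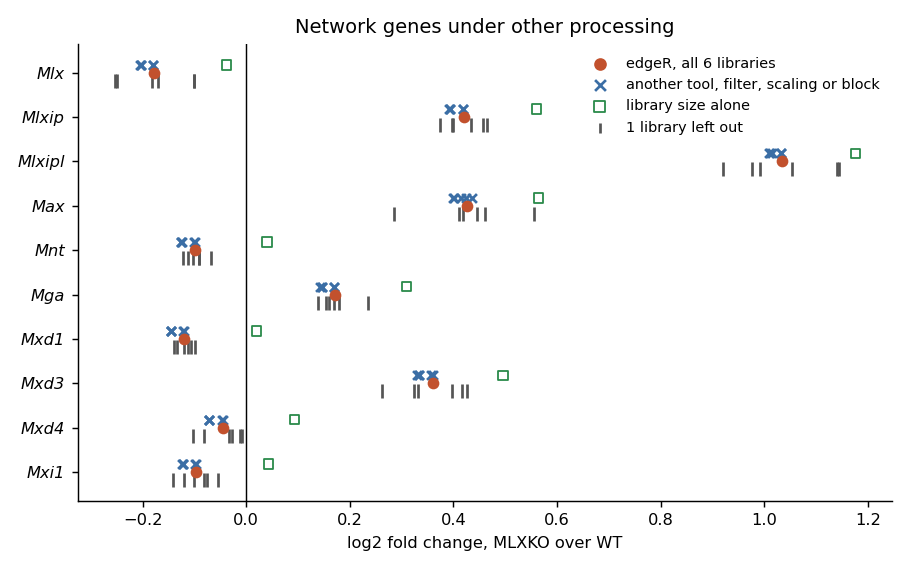
The LFC of each network gene, MLXKO over WT, is plotted as reported (orange), under other tools, filters, scalings or the pair as a block (blue crosses), with library size alone (green squares) and with 1 library left out (grey bars). *Mlxipl* stays between 0.92 and 1.18 and *Mlxip* between 0.37 and 0.56, while *Mnt*, *Mxd1*, *Mxd4* and *Mxi1* cross 0 with library size alone.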

How the data were processed

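RNA from whole testes of 3 WT and 3 MLXKO males was sequenced by the authors as paired-end reads and aligned to mm10 with TopHat. The deposited counts give reads for each gene symbol in each library without normalization. The counting tool, annotation and strand setting are not given in the sources used here. The same table holds the authors' own comparison columns (mean, fold change, error, score and p-values), which were not used. The ChIP samples were not used here. Of 17933 rows, 2 repeated a symbol and were used once.

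edgeR 4.0.16 in R 4.3.3 was run with its low-count filter (minimum 10), TMM factors (0.943 to 0.961 in WT, 1.02 to 1.07 in MLXKO), the two-sided quasi-likelihood test on genotype alone and Benjamini-Hochberg adjustment over 14640 genes, at a threshold of 0.05. log2 CPM used a prior count of 2. DESeq2 1.42.0, other scalings, no filter, the pair as a block and leaving out each library were alternatives. RPKM used GENCODE vM21 exon lengths. The code was tested on simulated data. The libraries are separate animals, in littermate pairs by the titles and methods. Deviations from group means correlated at 0.145, 0.0363 and 0.121 within same-numbered pairs and at most at 0.0330 between others.

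The text names all network genes, up to 4 called genes of each pathway list and up to 2 of each marker list with the largest absolute LFC, all genes of lists of 3, *Txnip*, *Arrdc4*, *Psmc3ip*, and the 5 genes most like the called member of largest LFC. *Acaca*, *Sin3b*, *Arid4b*, *Yaf2*, *L3mbtl2*, *Cbx3*, *Wdr5*, *Fasn*, *Acacb*, *Tomm20* and *Uchl1* were named after their values were seen. Members and lists were chosen with earlier results of these data known.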

Additional observations from a re-analysis of the deposited data

How the results depend on the processing

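*Mlxip* and *Mlxipl* stayed higher and past the threshold under every alternative run, with LFC values of 0.37 to 0.56 and 0.92 to 1.18. The count of network genes called was 3 with DESeq2 and 2 to 4 as each library was left out, with 2 when WT3 was left out, where *Max* (0.28, adjusted p = 0.05005) was lost. The LFC of *Max* was 0.28 to 0.56 and that of *Mga* 0.14 to 0.23 in those fits. *Mga* missed the threshold with DESeq2 (0.15, adjusted p = 0.152), with DESeq2's size factors in edgeR (0.15, adjusted p = 0.0735) and in DESeq2 with the replicate pair as a block (0.14, adjusted p = 0.268), and passed it in edgeR with the block (0.17, adjusted p = 0.0307). *Mxd1* passed it with DESeq2's size factors (-0.15, adjusted p = 0.0269). Library size alone turned *Mnt* to 0.0399, *Mxd1* to 0.0196, *Mxd4* to 0.0929, *Mxi1* to 0.0433 and *Mycl* to 0.0677, and it split the genes called into 5343 higher and 1268 lower in place of 3634 and 3015. *Mycl* was between -0.26 and 0.16 with 1 library left out (0.16 without WT3, 0.12 without KO3). Of the pathway list genes, 20 were called, 13 in DESeq2 with the block, and 15 to 26 with 1 library left out. The block in edgeR changed no call among the network genes, and called 6743 genes against 6649. With the longest transcript as length, 5 of 10 places in the order were kept and the WT share of *Mlxip* was 7.28%. The cause of these changes was not tested. Counts of 17 to 28 for *Mxd3* and 4 to 16 for *Myc* limit what could be detected.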
